A study of Homo sapiens with 6 samples.

Results

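The genes described here encode AP-1 subunits and other products of the immediate early response. They are FOS, FOSB, FOSL1 and FOSL2 of the FOS family, JUN, JUNB and JUND of the JUN family, and EGR1, ATF3 and IER2. The members were taken by symbol, and all 10 were found among the 23002 genes of the deposited table. The RNA came from U251, an established cell line of human glioblastoma (GBM), in 3 samples of a line carrying a non-targeting lentivirus (sh-NC) and 3 samples of a line carrying a lentivirus against TRAF2 (sh-TRAF2). Both are stable lines made by lentiviral transduction and puromycin selection, so the vector and the selection are common to the groups. Which TRAF2 hairpin was sequenced is not given, no TNF-α treatment is named for these samples, and the replicates are called biological without a word on whether they are separate transductions of the cells, so the p-values measure the spread between these samples only.

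AP-1 is a transcription factor built from a pair of leucine zipper proteins. A FOS protein must pair with a JUN protein to bind DNA, whereas JUN proteins can also pair with each other or with ATF proteins. Genes such as FOS, EGR1 and IER2 are transcribed within minutes of a stimulus from factors already present in the cell, and their messages are short-lived. TRAF2 is the adaptor that couples TNF receptors to the JNK and NF-κB pathways, and JNK phosphorylates JUN. FOSL1 is known from GBM cells of mesenchymal character.

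To show what the start sites of these genes look like, the 250 bases before the RefSeq start are given for FOS and EGR1, whose messages rose most, and for JUN and JUND, which moved in opposite directions. The sequences are from RefSeq on GRCh38.p14 and are printed 5′ to 3′ on the strand of the gene. Capitals mark matches to TGACG (the core of the cAMP response element, CRE), to TGACNTCA (an octamer bound by AP-1 and ATF proteins) and to the CArG box, where serum response factor binds. The FOS sequence is chr14:75278578-75278827 on the plus strand, that of EGR1 is chr5:138465229-138465478 on the plus strand, that of JUN is chr1:58784048-58784297 on the minus strand, and that of JUND is chr19:18281623-18281872 on the minus strand.
FOS: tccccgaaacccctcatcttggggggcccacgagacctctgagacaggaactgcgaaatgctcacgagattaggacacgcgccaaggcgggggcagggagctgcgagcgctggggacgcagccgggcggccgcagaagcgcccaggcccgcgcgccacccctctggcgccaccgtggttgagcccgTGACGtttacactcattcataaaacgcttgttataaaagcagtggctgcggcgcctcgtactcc
EGR1: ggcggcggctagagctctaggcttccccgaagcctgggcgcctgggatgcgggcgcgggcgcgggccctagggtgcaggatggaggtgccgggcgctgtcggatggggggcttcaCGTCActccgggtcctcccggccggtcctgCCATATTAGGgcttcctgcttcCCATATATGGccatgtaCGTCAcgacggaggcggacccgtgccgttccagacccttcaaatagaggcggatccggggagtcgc
JUN: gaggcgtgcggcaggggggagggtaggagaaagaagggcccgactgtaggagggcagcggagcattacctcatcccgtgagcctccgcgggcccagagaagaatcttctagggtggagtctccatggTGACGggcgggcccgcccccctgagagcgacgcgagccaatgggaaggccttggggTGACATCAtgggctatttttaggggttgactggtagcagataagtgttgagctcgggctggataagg
JUND: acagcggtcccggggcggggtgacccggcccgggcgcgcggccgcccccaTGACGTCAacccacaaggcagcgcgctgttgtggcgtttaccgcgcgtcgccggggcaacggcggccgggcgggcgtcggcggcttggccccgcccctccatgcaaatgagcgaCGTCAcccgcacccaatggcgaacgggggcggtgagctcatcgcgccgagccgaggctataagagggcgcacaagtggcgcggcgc

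A promoter entry was found for 9 of the 10 genes, FOSL1 being the exception. Only the first entry listed for a gene was used, and any other start of the same gene, as in ATF3, was not scanned. By the GENCODE gene positions, the windows of JUN and FOSL2 lie within the gene. Those of FOS, FOSB and ATF3 end within it, so these windows are not wholly upstream of the annotated gene. TGACG on either strand lay in 8 of the 9, against 21.2% of 35116 promoters of the same length, and it was not found in ATF3. In FOS it lay at positions -64 to -60 from the start. EGR1 held 2 CArG boxes, at -105 to -96 and -83 to -74, a motif found in 1.16% of all promoters and in none of the other 8 windows. JUN held TGACATCA at -67 to -60 and ATF3 held the same letters at -123 to -116. JUND held the full CRE TGACGTCA at -200 to -193. This octamer overlaps 2 TGACG matches and is itself a case of TGACNTCA, which occurred in 6.87% of promoters, while TGACGTCA occurred in 1.65%. The AP-1 site TGACTCA (4.2% of promoters) and the EGR site GCGTGGGCG (0.72%) were found in 0 of the 9 windows. These matches are letters in a window and not measured binding. Bases further upstream were not scanned, so a motif missing from a window may still lie outside it.

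**Figure D1:**
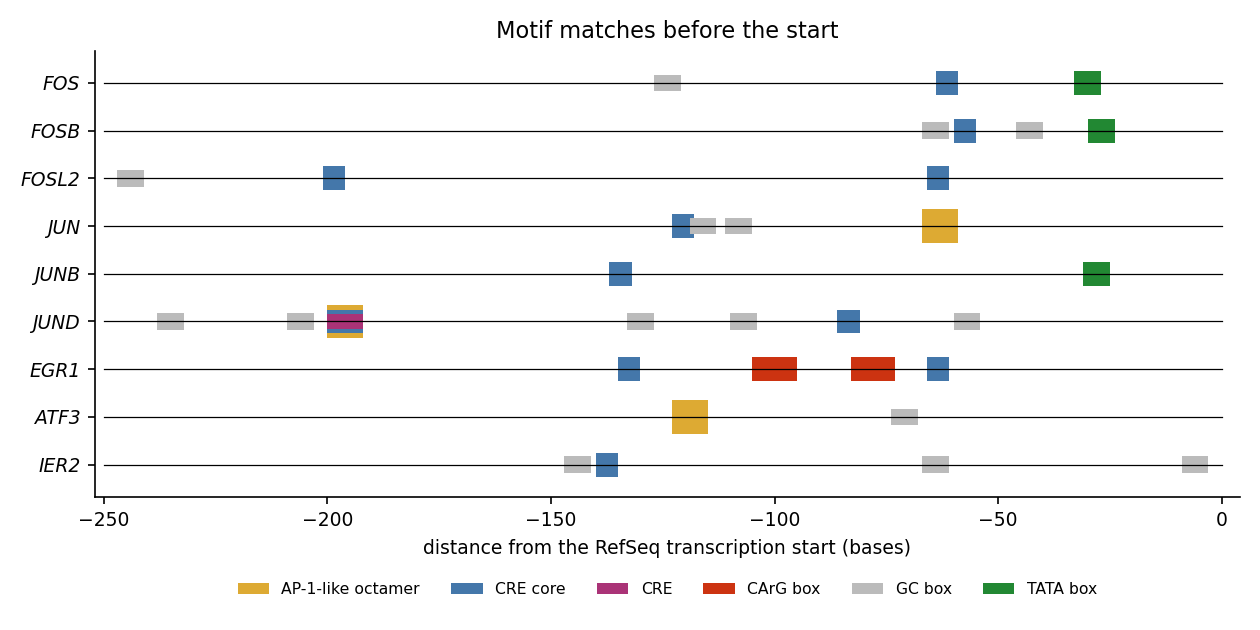
Motif matches in the 250 bases before the RefSeq start of 9 genes, with the distance from the start in bases on the x axis and 1 line for each gene. Within these windows the 2 CArG boxes lie in EGR1 alone, and the full CRE lies in JUND within an AP-1-like octamer.

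The targeted gene and the depth were read first. TRAF2 lay at 15.07, 18.38 and 15.35 FPKM (fragments per kilobase of transcript, scaled to depth) in sh-NC and at 3.26, 3.221 and 3.327 FPKM in sh-TRAF2, a log2 fold change of -2.27 (limma adjusted p = 1.16e-06), so every sample matched its label. The reads recovered from the FPKM values came to 33999558 to 36823562 per sample. The marker genes VIM, CD44 (177 to 192 FPKM) and SOX2 (24.1 to 28.7) were high in all samples. VIM lay at 1210 to 1280 FPKM in sh-NC and at 1560 to 1610 in sh-TRAF2. The astrocyte markers GFAP and S100B reached at most 1.62 and 0.0228 FPKM, and CHI3L1, also chosen as a marker, was not among the deposited genes. NES, a neural progenitor marker, went from between 4.82 and 5.88 FPKM in sh-NC to between 11.4 and 11.8 in sh-TRAF2, and its part in the results was not tested. Markers of leukocytes (PTPRC), endothelium (PECAM1), epithelium (EPCAM), neurons (RBFOX3) and oligodendrocytes (MOG) stayed at or below 0.0186 FPKM, while the neuronal marker SYP reached 0.144 and the liver marker ALB 0.208.

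The question of the comparison was how the messages of these transcription factors differ once TRAF2 is lowered, and whether FOS differs from the rest. After TRAF2 knockdown FOS and EGR1 rose by more than 2-fold, FOSB, FOSL2, JUN and IER2 rose by smaller amounts, JUND fell, and no change of FOSL1, JUNB or ATF3 passed the test. The test was limma, run on log2(FPKM + 0.1), with Benjamini-Hochberg adjustment over the 11870 genes whose mean was at least 0.5 FPKM. A log2 fold change is sh-TRAF2 against sh-NC on that scale, where changes of weakly expressed genes come out too small. In bulk RNA, fewer cells with a message and less message per cell cannot be told apart. At the thresholds of the study, an absolute log2 fold change above 1 and an adjusted p under 0.05, 2 of the 10 genes were called higher, against 0.986% of all genes tested (1.72% in either direction). None was called lower by limma, against 0.733%, or by limma-voom, against 174 of 14130 genes. By the adjusted p alone, 6 of the 10 were higher (23.7% of all genes tested) and 1 was lower (20.9%, and 44.6% in either direction). The groups did not overlap in 6 genes that were higher (29.0% of all genes) and in 1 that was lower (26.5%, and 55.5% in either direction). FOS is in each of these counts of higher genes. It passed the filter on the mean only through sh-TRAF2, so that once tested it had to be higher there. The median log2 fold change was 0.38 over the 10 genes and 0.02 over all genes tested.

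**Figure D2:**
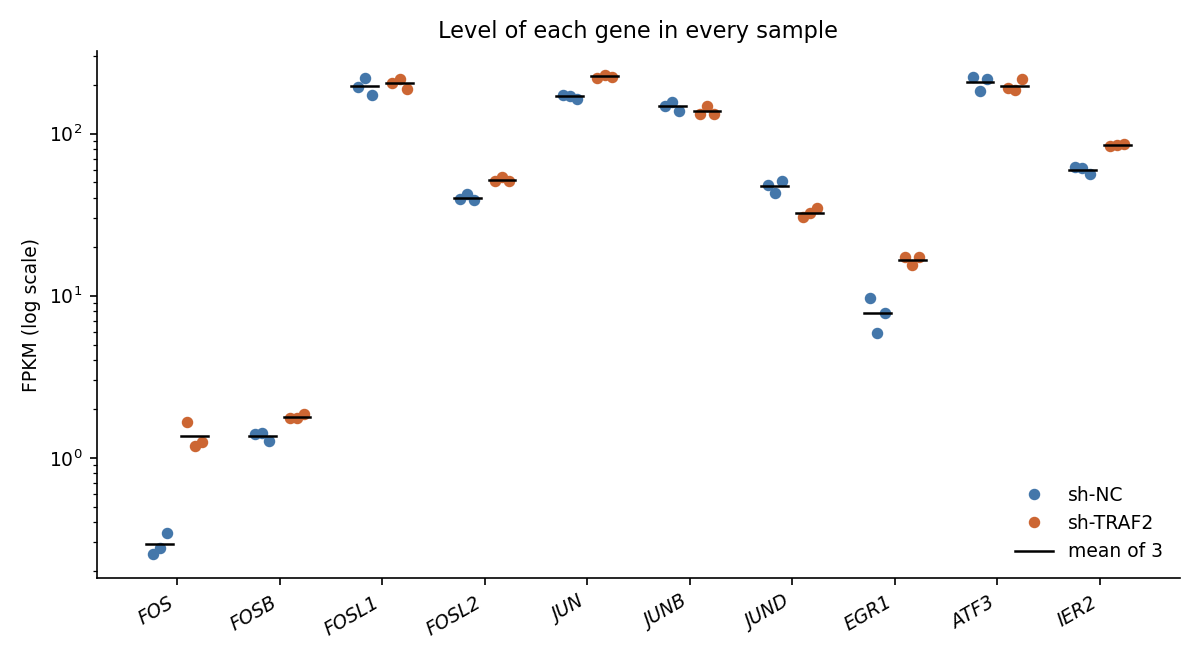
FPKM of the 10 genes on a log scale, with 1 point per sample and a bar at the mean of the 3 samples of a group. The groups are apart in 7 genes and overlap in FOSL1, JUNB and ATF3, and FOS is the lowest of the 10 genes in every sh-NC sample.

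FOS, the founding member of its family, is encoded on chromosome 14 (75278774 to 75282230, GRCh38). FOS was measured at 0.2536, 0.2789 and 0.3453 FPKM in sh-NC and 1.666, 1.177 and 1.246 FPKM in sh-TRAF2. As the smallest whole numbers that match the steps of the values, these stand for 19, 21 and 27 reads in sh-NC and for 122, 85 and 92 reads in sh-TRAF2. Every sh-TRAF2 sample thus lay well above every sh-NC sample, but on few reads. The mean went from 0.293 ± 0.0474 to 1.36 ± 0.264 FPKM (SD, n = 3), a ratio of the means of 4.66 (p = 0.1 by an exact two-sided permutation, the lowest p that 3 against 3 samples can give). The log2 fold change was 1.89 (SE 0.19, limma adjusted p = 0.000138), the rank 4 of 11870 from the highest. FOS passed the filter on low values only through sh-TRAF2, since its sh-NC mean was under 0.5 FPKM. In this fit a tested FOS thus had to be higher in sh-TRAF2. With no filter on low values the log2 fold change was also 1.89 (limma adjusted p = 0.00129). The size depended on the pseudocount, with a log2 fold change of 0.87 at a pseudocount of 1, which is below the fold threshold, and of 2.19 by limma-voom on the recovered reads. Even after the rise, the level of FOS in sh-TRAF2 stayed below that of FOSB in the same group, and over all samples it exceeded only 6.71% of the genes tested.

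FOSB, a FOS protein also known from neurons after repeated stimulation, was the other low member. It lay at 1.406, 1.421 and 1.262 FPKM in sh-NC and at 1.765, 1.752 and 1.872 FPKM in sh-TRAF2. The groups did not overlap, and the distance between them was small beside that of FOS. The log2 fold change was 0.38 (SE 0.097, limma adjusted p = 0.0142), and without sh-TRAF2 replicate 3, the highest sample, the adjusted p was 0.0537. FOSB rests on 177 to 248 reads per sample.

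FOSL2, which encodes FRA-2, lay at 39.27, 42.4 and 38.73 FPKM in sh-NC and at 50.77, 54.31 and 51.31 FPKM in sh-TRAF2. All sh-TRAF2 samples were higher, with a log2 fold change of 0.38 (SE 0.048, limma adjusted p = 0.000431). FOSL1, which encodes FRA-1, was the most abundant FOS family message, at 193.1, 221.9 and 172.7 FPKM in sh-NC and 206.0, 218.1 and 189.1 FPKM in sh-TRAF2. Its groups overlapped almost fully. The log2 fold change of FOSL1 was 0.07 with a 95% interval from -0.13 to 0.27 (limma adjusted p = 0.564), so that a rise as large as that of FOSL2 lay outside the interval.

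Because FPKM is scaled to length, the levels of family members were set side by side. The gene lengths behind the values are not given, so the size of a share may be off by an error in length. FOSL1 made up 82.3 ± 1.19% of the summed FPKM of the 4 FOS family genes in sh-NC and 78.7 ± 0.887% in sh-TRAF2 (SD, n = 3). The share of FOSL2 went from 17.0 ± 1.13% to 20.1 ± 0.842% (SD, n = 3). FOS itself made up 0.108, 0.105 and 0.162% of the family in sh-NC and 0.64, 0.428 and 0.512% in sh-TRAF2. The large relative rise of FOS therefore left FOSL1 as the main FOS family message in every sample, and the summed level of the family overlapped between the groups, at 213 to 266 FPKM in sh-NC and 244 to 275 FPKM in sh-TRAF2.

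Within the JUN family the members moved apart. JUN, the main transactivating subunit and a substrate of JNK, lay at 174.5, 171.6 and 164.0 FPKM in sh-NC and at 221.6, 231.2 and 225.4 FPKM in sh-TRAF2. The 2 groups were narrow and well separated. The log2 fold change of JUN was 0.41 (SE 0.035, limma adjusted p = 6.04e-05), a rise of 32.9% in the mean FPKM. JUND, which often opposes the growth-promoting action of JUN, lay at 48.07, 42.87 and 51.07 FPKM in sh-NC and at 30.83, 32.36 and 34.69 FPKM in sh-TRAF2. Every sh-TRAF2 sample was lower, and JUND was the only one of the 10 genes to fall past the test in this fit. Its log2 fold change was -0.53 (SE 0.07, limma adjusted p = 0.000516), and the mean FPKM fell by 31.1%. JUNB lay at 149.0, 156.8 and 138.4 FPKM in sh-NC and at 131.7, 147.5 and 133.2 FPKM in sh-TRAF2. These groups overlapped, and the log2 fold change was -0.11 with a 95% interval from -0.24 to 0.03 (limma adjusted p = 0.167). With quantile normalization of the samples JUNB had a log2 fold change of -0.18 with an adjusted p of 0.0237 from limma, so that its call depends on the scaling. The annotation places 259 of the 1820 exonic bases of JUNB in exons of HOOK2 on the other strand, and the use of strand in counting is not given.

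JUN made up 46.5 ± 0.382% of the summed FPKM of the JUN family in sh-NC and 57.1 ± 0.755% in sh-TRAF2 (SD, n = 3). JUND went from 13.0 ± 1.45% to 8.24 ± 0.51% and JUNB from 40.5 ± 1.58% to 34.7 ± 1.07% (SD, n = 3). No sample of one group reached the range of the other for any of these shares, which within a family are bound to each other. The summed level was 353 to 372 FPKM in sh-NC and 384 to 411 FPKM in sh-TRAF2.

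**Figure D3:**
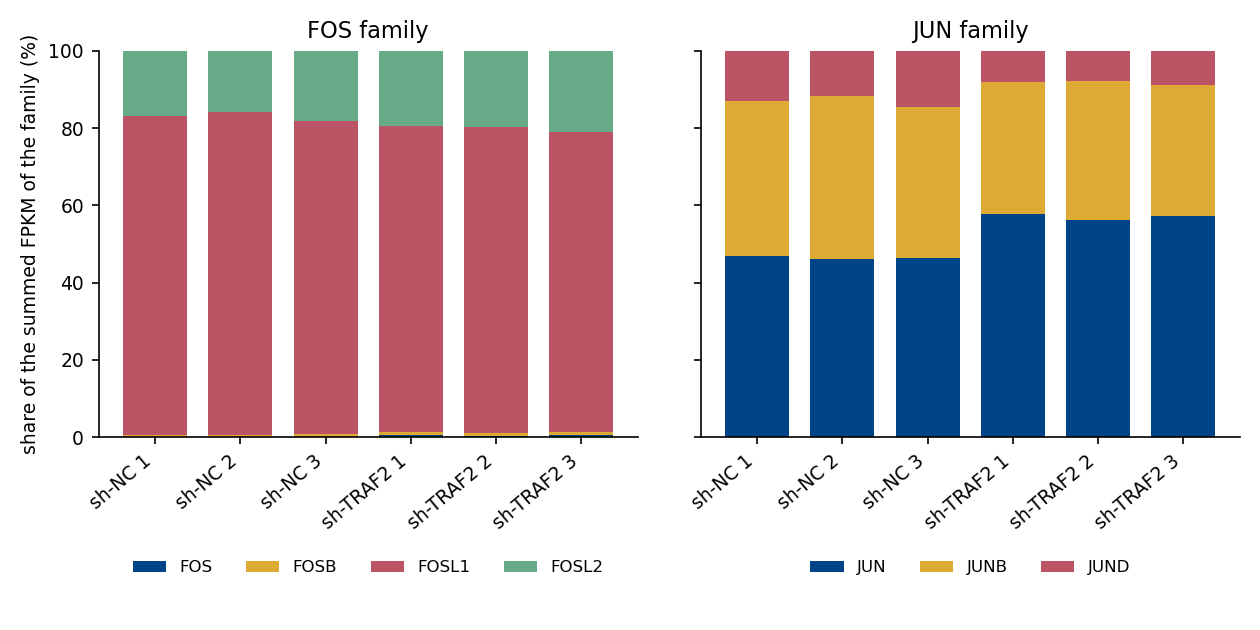
Share of each gene in the summed FPKM of the FOS family (left) and of the JUN family (right), in percent, with 1 stacked bar per sample. FOSL1 is the largest part of the FOS family in all 6 samples, and JUN takes 46.2 to 47.0% of its family in sh-NC and 56.2 to 57.7% in sh-TRAF2.

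EGR1, a zinc finger factor that is induced along with FOS, lies on chromosome 5 from 138465490 to 138469315. It lay at 9.73, 5.889 and 7.874 FPKM in sh-NC and at 17.4, 15.52 and 17.24 FPKM in sh-TRAF2, on 661 to 1900 reads per sample. The sh-NC samples varied more among themselves than the sh-TRAF2 samples, and still all lay below them. The mean rose from 7.83 ± 1.92 to 16.7 ± 1.04 FPKM (SD, n = 3), a ratio of 2.14. The log2 fold change of EGR1 was 1.11 (SE 0.15, limma adjusted p = 0.000685). The fold threshold was passed narrowly, since without sh-NC replicate 2, the lowest sample, the log2 fold change was 0.92 (limma adjusted p = 0.000385).

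IER2, a small nuclear protein of the immediate early response, lay at 62.44, 61.03 and 56.67 FPKM in sh-NC and at 83.72, 84.8 and 86.68 FPKM in sh-TRAF2. The groups were far apart beside their spread, with a log2 fold change of 0.50 (SE 0.043, limma adjusted p = 6.67e-05). The annotated antisense gene AC011446.2 covers 946 of the 3072 exonic bases of IER2, so the reads of the pair cannot be told apart without strand. ATF3, a stress-induced partner of JUN proteins, was one of the most abundant of the 10 messages, at 222.4, 183.3 and 219.0 FPKM in sh-NC and 192.6, 184.8 and 217.6 FPKM in sh-TRAF2. Its groups overlapped over most of their range. The log2 fold change of ATF3 was -0.07 with a 95% interval from -0.26 to 0.12 (limma adjusted p = 0.533).

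In sh-NC the levels ran, from highest to lowest mean, in the order ATF3, FOSL1, JUN, JUNB, IER2, JUND, FOSL2, EGR1, FOSB and FOS. ATF3 and FOSL1, and FOSL1 and JUN, overlapped between their samples, while each of the 7 lower pairs of neighbours was separate. In sh-TRAF2 ATF3 and FOSL1 still overlapped, and JUN lay above both in all samples. JUND and FOSL2 changed places, with FOSL2 at 50.77 to 54.31 FPKM in sh-TRAF2 and JUND at 30.83 to 34.69 FPKM. The 10 genes therefore spanned from 0.293 to 208 FPKM in the control line.

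**Figure D4:**
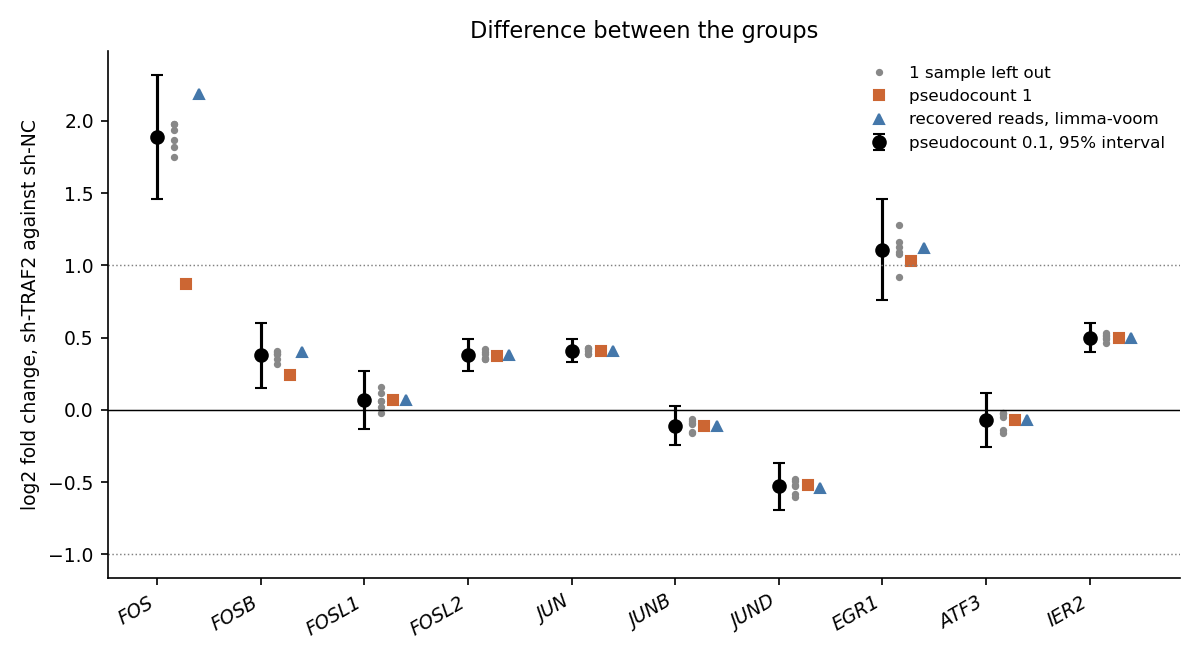
Log2 fold change of each gene, sh-TRAF2 against sh-NC. Black points with 95% intervals are limma on log2(FPKM + 0.1), grey points leave out 1 sample each, squares use a pseudocount of 1 and triangles use limma-voom on recovered reads, and dotted lines mark the fold threshold of 1. FOS moves from 0.87 to 2.19 with the method, while JUN stays close to 0.41.

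FOS was then set against each of the other 9 genes, by the difference of their log2(FPKM + 0.1) values within each sample. This difference was higher in every sh-TRAF2 sample than in every sh-NC sample for all 9 pairs (two-sided exact permutation tests, p = 0.1 for each pair and 0.1 adjusted over the 9 pairs, the smallest possible). The 9 pairs share the same FOS values and are not independent, so they largely restate the rise of FOS itself. FOS also passed the filter on low values only through sh-TRAF2. The shift of FOS beyond the other gene was largest against JUND, at 2.42 on the log2 scale. It was 2.0 against JUNB, 1.96 against ATF3 and 1.82 against FOSL1. Against the genes that rose by less it was 1.51 for FOSB, 1.51 for FOSL2, 1.48 for JUN and 1.39 for IER2. The shift was smallest against EGR1, at 0.78. With a pseudocount of 1 the shifts were smaller against all of them, at 1.39 for JUND, 0.97 for JUNB, 0.93 for ATF3, 0.80 for FOSL1, 0.62 for FOSB, 0.50 for FOSL2, 0.46 for JUN and 0.37 for IER2, and the sign turned for EGR1, to -0.16. On this scale the order of FOS and EGR1 thus depended on the pseudocount. The ratio of the mean FPKM values, which uses no pseudocount, was 4.66 for FOS and 2.14 for EGR1.

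The 3′UTRs of these genes were scanned for AU-rich elements, which mark short-lived messages. The nonamer ATTTATTTA lay in FOS alone of the 10 genes, against 7.95% of the 10607 tested genes with a 3′UTR in GENCODE release 29. It covers bases 644 to 652 of the 806-base 3′UTR of FOS-201 and is shown in capitals with 8 bases on either side.
FOS: tgtttttaATTTATTTAttaagatg
The pentamer ATTTA occurred 5 times in FOS, 9 times in the 4864-base 3′UTR of FOSL2, 1 to 3 times in FOSB, FOSL1, JUN, JUNB, JUND, EGR1 and ATF3, and 0 times in IER2, with a median of 2 over the tested genes.

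Proteins that bind AU-rich elements were one of 6 lists of related genes, whose counts stand beside 23.7% higher and 20.9% lower among all genes tested. Of 9 tested, 1 was higher and 3 were lower at an adjusted p under 0.05, with a median log2 fold change of -0.06. ZFP36L1, which promotes the decay of such messages, lay at 92.6, 98.21 and 89.06 FPKM in sh-NC and at 51.45, 46.3 and 49.05 FPKM in sh-TRAF2. Its sh-TRAF2 samples were all lower, with a log2 fold change of -0.93 (SE 0.051, limma adjusted p = 8.18e-06). KHSRP, also a decay factor, rose by 0.35 on the log2 scale (limma adjusted p = 6.86e-05), and TIA1, a translational repressor, fell by 0.35 (limma adjusted p = 0.000716). ZFP36, the best known factor of this group, had a log2 fold change of -0.14 (limma adjusted p = 0.148).

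Of the 11 tested factors and coactivators that act on the FOS and EGR1 promoters, 2 were higher and 4 were lower, with a median log2 fold change of -0.13. SRF, which binds the CArG box, lay at 12.06, 12.99 and 11.33 FPKM in sh-NC and at 17.05, 17.33 and 17.22 FPKM in sh-TRAF2. It was higher in all sh-TRAF2 samples, with a log2 fold change of 0.50 (SE 0.056, limma adjusted p = 0.000232). ELK1, an ETS partner of SRF that ERK phosphorylates, fell by 0.43 on the log2 scale (limma adjusted p = 0.000812). CREM, a factor of the CRE, rose by 0.37 (limma adjusted p = 0.00745). The named factors thus moved in both directions.

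Of the AP-1 dimer partners outside the 10 genes, 9 were tested, of which 1 was higher and 5 were lower, with a median of -0.13. NFE2L2, which encodes the antioxidant regulator NRF2, fell by 0.67 on the log2 scale (SE 0.041, limma adjusted p = 1.23e-05), from 71.3 ± 3.23 to 44.7 ± 0.141 FPKM (SD, n = 3). JDP2, a repressor that pairs with JUN proteins, fell by 0.39 (limma adjusted p = 0.00238), and NFE2L1 fell by 0.32 (limma adjusted p = 0.0045). These falls contrast in sign with the rise of JUN.

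Of 26 tested other immediate early genes, 9 were higher and 4 were lower at an adjusted p under 0.05, against 44.6% of all genes in either direction, and 13 did not pass, with a median log2 fold change of 0.15. SGK1, a serum-induced kinase, rose most clearly, from 8.71 ± 0.253 to 14.0 ± 1.28 FPKM (mean ± SD, n = 3), or on the log2 scale 0.68 (limma adjusted p = 0.000161). GADD45B, a stress gene that acts on the JNK pathway, rose by 0.36 (limma adjusted p = 0.000492), and KLF6, a zinc finger factor, rose by 0.34 (limma adjusted p = 0.000824). ARC, EGR2, EGR3, NPAS4 and NR4A3 had means under 0.5 FPKM and were not tested. No member of this list was called at the fold threshold, against 1.72% of all genes tested in either direction.

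Of 17 tested genes described as AP-1 targets, 6 were higher and 3 were lower (44.6% of all genes in either direction), with a median of 0.03. HBEGF, an EGF receptor ligand, lay at 35.69, 38.43 and 29.63 FPKM in sh-NC and at 70.44, 64.78 and 60.7 FPKM in sh-TRAF2. All of its sh-TRAF2 samples were higher, with a log2 fold change of 0.92 (SE 0.094, limma adjusted p = 0.000152). MMP10, a matrix metalloproteinase, rose by 0.59 (limma adjusted p = 0.000488). PLAU, the urokinase gene, fell from 508 ± 15 to 325 ± 23.3 FPKM (mean ± SD, n = 3), or on the log2 scale -0.65 (limma adjusted p = 4.12e-05).

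Of 10 tested stress genes linked to ATF3, 3 were higher and 5 were lower, with a median of -0.28, while ATF3 itself did not pass the test. CHAC1, a glutathione-degrading enzyme, fell by 0.58 on the log2 scale (limma adjusted p = 4.7e-05), and SESN2, a stress-induced inhibitor of mTORC1 signalling, fell by 0.62 (limma adjusted p = 0.000313). ASNS, asparagine synthetase, rose by 0.61 (limma adjusted p = 0.000362). Over all 6 lists, 22 of the 80 tested genes were higher and 24 were lower by the adjusted p (23.7% and 20.9% of all genes tested). None of the 80 passed the fold threshold in limma, against 1.72% of all genes tested in either direction. In limma-voom none of 86 passed it, against 239 higher and 174 lower of 14130 genes.

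**Figure D5:**
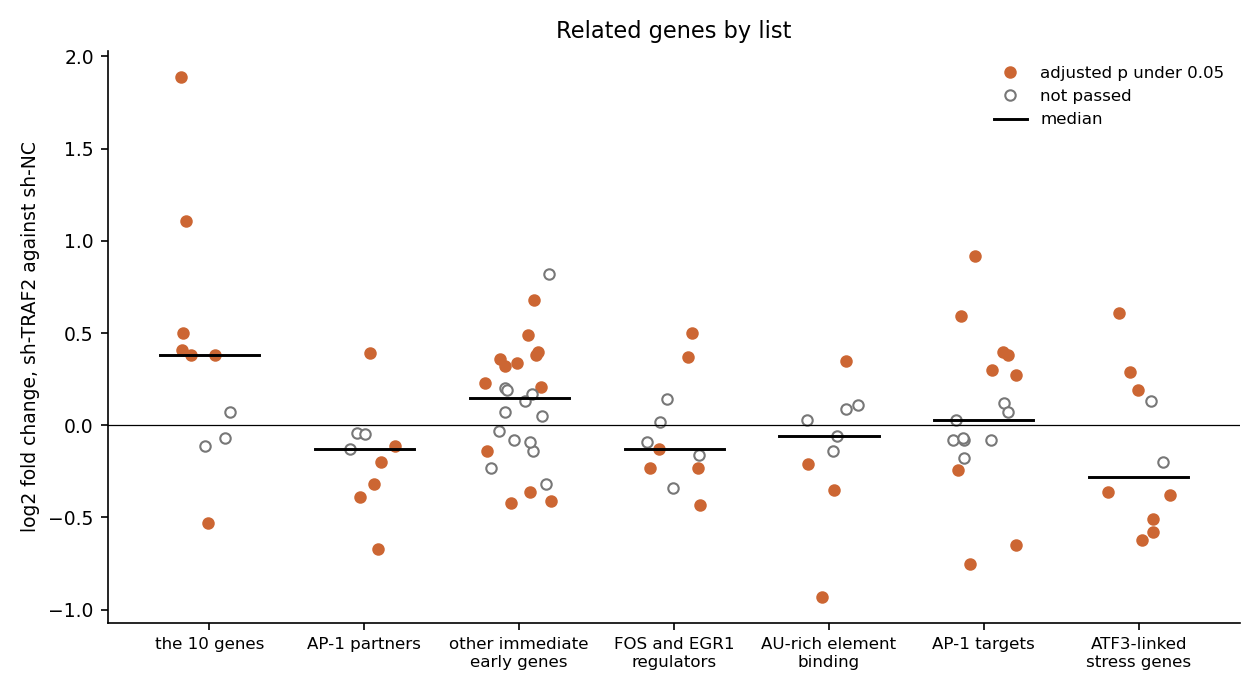
Log2 fold change of the 10 genes and of the tested genes of 6 related lists, with 1 point per gene, filled where the adjusted p is under 0.05, and a bar at the median of each list. The 10 genes have a median of 0.38, and the lists have medians between -0.28 and 0.15.

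The genes whose pattern was most like that of FOS were sought by the Pearson correlation of log2(FPKM + 0.1) over the 6 samples. With 6 samples in 2 groups the measure mostly follows the difference between the groups, and 14.2% of the tested genes had a correlation above 0.9. The 5 highest were ARHGDIB (0.999), SMARCC1 (0.999), SEPTIN8 (0.998), NT5C3A (0.998) and RALB (0.998). Among the 10 genes, JUN and IER2 each correlated with FOS at 0.95, FOSL2 and EGR1 at 0.92, FOSB at 0.91 and JUND at -0.94. FOSL1 lay at 0.2, ATF3 at -0.28 and JUNB at -0.68.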

How the data were processed

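RNA was extracted with TRIzol, and libraries were prepared with the VAHTS Universal V6 kit and sequenced by OE Biotech. What the authors deposited is 1 table in FPKM, in which each sample has a column. HISAT2, HTSeq, R 3.2.0 and DESeq2 are named in the submitters' processing notes without a role, and the genome build, annotation and use of strand are not given in the sources used here. Other columns hold gene annotation.

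Samples were grouped by their titles. After removal of genes averaging under 0.5 FPKM, log2(FPKM + 0.1) was formed, and the groups were compared with limma 3.58.1 in R 4.3.3 (eBayes with a trend, two-sided, Benjamini-Hochberg over 11870 genes). The fit was also run on simulated normal values, which hold no read counts and so are no check for genes with few reads. The pseudocount shrinks changes of weakly expressed genes. Reads were recovered as the smallest whole numbers (within 0.001) that fit the steps of a gene's FPKM values. A multiple of them could match too. The gene lengths they imply (2124 bases for FOS) exceeded the exonic bases annotated here for FOSL2 (8869 against 7157), JUND, JUNB and EGR1, so length gave no check of this scale. FOS was set against each other gene by exact permutation tests over samples. Other alternatives were the pseudocount, the filter, TPM rescaling, quantile normalization, the trend, a replicate block, each sample left out, and limma-voom on recovered reads. Replicates differed by more than counting noise (mean chi-square of 5.01 to 12.2 per gene).

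The 10 genes and the 6 lists were chosen with earlier results of these data known. Named are TRAF2, the 10 genes, of each list the 3 genes with the smallest adjusted p and any called at the fold threshold, and the 5 genes most like FOS. ZFP36 and those listed as not tested were named after their values were seen. BATF and EGR4 were not analysed here. Gene positions and 3′UTRs (the longest per gene) are from GENCODE release 29 on GRCh38. Tables were handled in Python 3.11.15 with pandas 2.3.3 and numpy 2.4.6, exact tests used scipy 1.17.1, and plots used matplotlib 3.10.9.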

Additional observations from a re-analysis of the deposited data

How the results depend on the processing

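One of the 10 genes, in place of 2, was called higher with a pseudocount of 1 (FOS at 0.87), with a mean FPKM of at least 1 (FOS was then not tested) and without sh-NC replicate 2 (EGR1 at 0.92). The number called higher ranged from 1 to 2 with each sample left out. By the adjusted p, 2 genes rather than 1 were lower with quantile normalization and with the replicate block, JUNB being the addition, and 5 rather than 6 were higher without sh-TRAF2 replicate 3 (FOSB lost) and with a mean FPKM of at least 1 (FOS not tested).

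The correlations of deviations were -0.0812, 0.0722 and 0.0728 for same-numbered samples. Samples numbered 2 and 3 correlated best with their own number, and those numbered 1 did not. Correlations this weak neither show nor exclude a pairing by replicate number. Under the replicate block JUNB had a log2 fold change of -0.11 with an adjusted p of 0.0457 from limma, and 2912 of all genes were higher and 2539 lower by the adjusted p, against 2818 and 2479 without it. At the fold threshold 117 of all genes were higher and 87 lower, against 46 and 41 with a pseudocount of 1 and 239 and 174 by limma-voom on 14130 genes.

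FOSL1, which was not called, changed sign with quantile normalization (-0.00082) and without sh-NC replicate 3, and ranged from -0.02 to 0.16 with each sample left out. The difference between FOS and EGR1 was -0.16 with a pseudocount of 1, where the 9 pairs with FOS gave 8 that were separate and higher. Counts of list genes also shifted with the setting by a few genes. FOS rests on 19 to 27 reads per sh-NC sample, which limits the precision of its fold change. The cause of the other shifts was not tested.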
